A study of Mus musculus with 42 samples.

Results

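The radiation response of 9 mouse pre-B cell lines that lacked a protein of the chromatin around DNA breaks was set against that of 3 wild-type (WT) lines. The mutant lines were 53bp1-/-, H2ax-/- and Mdc1-/- lines, 3 of each genotype, and were analysed as 1 group. These 12 lines were chosen by genotype alone from the 21 lines of 7 genotypes in the series, and account for 24 of its 42 arrays. Each line was hybridised to 1 array at 2 h after 1 Gy of γ-rays from a caesium source and to 1 array at 2 h after mock treatment. Every line, WT lines included, came from bone marrow of a mouse aged 3 to 5 weeks that carried the Em-Bcl2 transgene, in which the survival gene Bcl2 is driven by an immunoglobulin heavy-chain enhancer, and was transformed with the pMSCV-v-abl retrovirus. All cells therefore expressed an oncogenic tyrosine kinase and extra Bcl2, and the responses are those of transformed cells protected from apoptosis. The labels number the WT lines 1, 3 and 4 and the lines of each mutant 1, 2 and 3, and call them biological replicates. Nothing in the labels says that the lines of a genotype came from separate animals, so the p-values measure the spread between lines, which may in part be technical. That spread was estimated from all 21 lines of the series.

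H2ax is the histone variant that the kinase Atm phosphorylates over long stretches of chromatin beside a double-strand break. The phosphorylated histone is bound by Mdc1, a scaffold that brings in ubiquitin ligases, and their marks in turn recruit 53bp1 (gene Trp53bp1), which shields broken ends from resection. In developing lymphocytes these proteins are known for holding together the ends that the Rag1 and Rag2 recombinase makes at antigen receptor genes. Atm also starts transcriptional programs by way of the transcription factors p53 and NF-kB. The comparison asks whether cells without the chromatin proteins change transcription after irradiation differently from cells that have them.

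For each line, the change was log2(signal + 16) on the irradiated array minus the same on the untreated array. The pooled mutant response is the mean of the mean changes of the 3 mutant genotypes, the WT response is the mean of its 3 lines, and the difference is the first minus the second. All 3 were tested with limma on the changes of all 21 lines, with Benjamini-Hochberg adjustment over 12363 genes and a threshold of 0.05. Signals are in MAS5 units, the array software's summary of a probe set after scaling each array to the same trimmed mean. The added 16 understates the fold change of dim genes.

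Each targeted gene was read as a check of the labels. The H2ax signal averaged 69.5 ± 30.7 on the 6 arrays of H2ax-/- lines, against 10749 ± 1587 on the 6 WT arrays (SD). The Mdc1 signal averaged 60.7 ± 73.1 on the 6 Mdc1-/- arrays, against 418 ± 53.3 on the 6 WT arrays. Neither pair of groups overlapped. The brightest Trp53bp1 probe set averaged 978 ± 221 on the 6 53bp1-/- arrays, against 1480 ± 258 on the 6 WT arrays, and these overlapped. Of 6 Trp53bp1 probe sets 1 separated the groups, at 295 to 505 on the 53bp1-/- arrays and 599 to 903 on the WT arrays. The other 5 overlapped, among them a set that averaged 121 on the 53bp1-/- arrays and 118 on the WT arrays. Where the probes lie relative to the disrupted part of each gene was not analysed here, and a probe set outside it checks nothing.

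Pre-B cell transcripts were present. Of 12 pre-B markers 10 were named on the arrays, and 9 of them (among them Cd79a, Vpreb1, Igll1 and Pax5) lay above the array's median on all 24 arrays. The summed signal of the 10 ranged from 58220 to 87259 on mutant arrays and from 64532 to 82456 on WT arrays. Of 7 T cell markers, Cd2 alone lay above the median on all 24 arrays, Cd8a did so on 22, and 4 (Cd3d, Cd3e, Cd4 and Thy1) did so on no array. Of 8 myeloid markers 1 (Csf1r) lay above the median on every array, and the 4 erythroid and 7 stromal markers each stayed at or below it on some or all arrays. The arrays measure RNA pooled from many cells, so fewer cells with a transcript and less of it per cell cannot be told apart.

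The irradiated array of WT line 4 had a median signal of 103, whereas the other 23 arrays lay between 62.3 and 80.8. Line 2 of H2ax-/- responded weakly in p53 targets, with a median change of 0.12 over the list described with those genes. Without WT line 4 the pooled response called 1343 genes, the WT response 387 and the difference between them 0, and without H2ax-/- line 2 the counts were 1184, 461 and 0. The count of the difference was 0 with and without either line.

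The mutant lines made a broad response to radiation and the genes called in it mostly changed in the same direction in the WT lines. In the pooled response 614 genes rose and 674 fell, 1288 of 12363 genes or 10.4%, and in the WT response 247 rose and 222 fell, 469 genes or 3.79%. The difference between the responses passed the test for 0 genes (0%). The smallest adjusted p of the difference was 0.698 in limma, and 654 genes (5.29%) had an unadjusted p under 0.05, of which 291 had a higher and 363 a lower change in the mutant lines. The larger count of the pooled response goes with its narrower error: the 95% interval of a pooled change reached a median of 0.17 log2 units to either side, against 0.29 for a WT change, with 9 lines in the pooled mean and 3 in the WT mean. At an unadjusted p under 0.05 the pooled response had 2445 genes (19.8%) and the WT response 1961 (15.9%). The WT count rested on few lines and was 115 without WT line 3 and 255 without WT line 1.

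Gene by gene, the called genes mostly pointed the same way. All 376 genes called in both responses changed in the same direction, 212 up and 164 down. They make up 29.2% of the pooled calls and 80.2% of the WT calls. Of the 1288 genes called in the pooled response 1233 (95.7%) had a WT change of the same sign, and of the 469 genes called in WT 457 (97.4%) had a pooled change of the same sign. Over all 12363 genes, most of which were called in neither response, the same sign was found for 7987 (64.6%), with Pearson's r = 0.44 and Spearman's rho = 0.38 across genes. Genes are not independent replicates, and these correlations are descriptions with no test. The responses share no array.

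A further comparison used genes chosen on other arrays. The Scid lines of the same series, which carry a mutation in Prkdc, gave 213 genes that rose and 118 that fell after irradiation in the same fit, which shares its estimate of the spread with all lines but none of the 24 arrays in the Scid mean. The 213 genes that rose had a median change of 0.64 in the mutant lines, against 0.63 in the WT lines. The 118 genes that fell had a median of -0.28 in the mutant lines, against -0.30 in the WT lines. Of all 331 genes 319 (96.4%) had the same sign in both, and r was 0.95. The slope of the mutant against the WT change, from an orthogonal fit that treats both alike, was 1.02. Both values draw on the gap between risen and fallen genes. Taken apart, r and slope were 0.92 and 1.00 in the 213 genes that rose, and 0.64 and 0.79 in the 118 that fell. The 95% interval of the difference lay within 1 log2 unit of 0 for 310 of the 331 genes. That bound is wider than the median change of the risen or the fallen genes. Over all genes tested it did so for 9068 (73.3%), and within 0.5 for 6426 (52%).

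**Figure D1:**
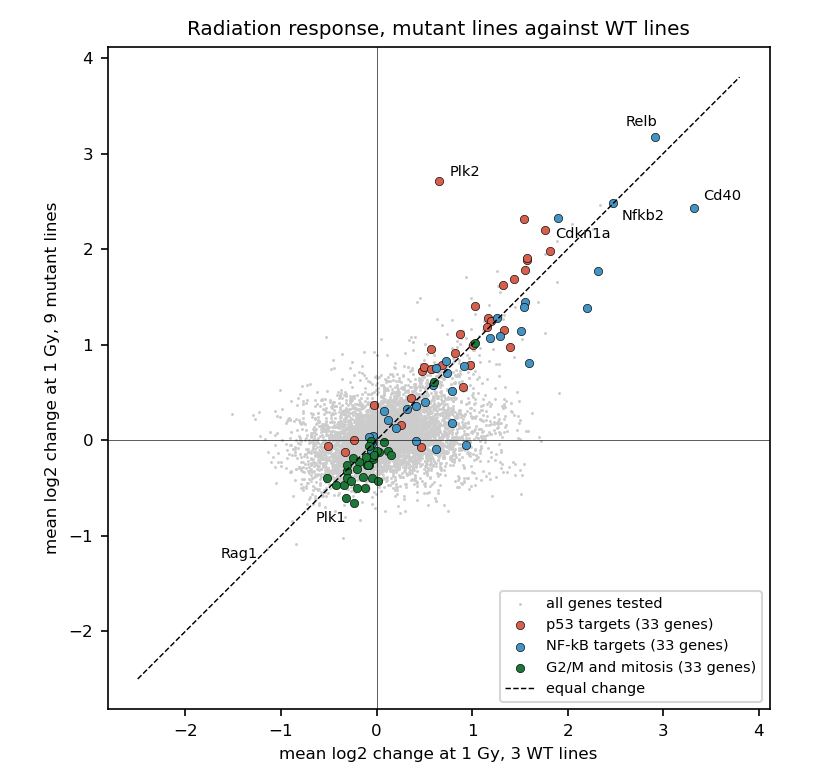
Mean log2 change at 1 Gy in the 9 mutant lines (vertical) against the 3 WT lines (horizontal), 1 point per gene for all 12363 genes tested, with 33 p53 targets, 33 NF-kB targets and 33 genes of G2/M and mitosis in colour and a dashed line of equal change. Many of the genes that changed most lie near the dashed line. Plk2 lies above it (2.72 in mutant lines, 0.65 in WT lines) and Cd40 below it (2.43 and 3.33). Genes further below it include Maff (0.49 and 1.91) and Slc45a2 (0.03 and 1.70).

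NF-kB is a family of dimeric transcription factors held in the cytoplasm by inhibitor proteins until a signal destroys them, and its first targets include its own subunits and inhibitors. Of 33 listed NF-kB targets 22 rose and 0 fell in the mutant lines, against 16 risen and 0 fallen in the WT lines, and 16 rose in both, beside 4.97% of all genes risen in the pooled response and 2% in the WT response. The median change of the list was 0.70 in the mutant lines and 0.79 in the WT lines, and 0 of the 33 differences passed. The list was compiled with results of these data known.

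Subunit genes led the NF-kB targets. Relb, which encodes a subunit of the slower, non-canonical arm, had signals of 325, 596 and 956 (lowest, median, highest) in the 9 irradiated mutant lines and of 24.4, 55.7 and 98.5 in the same lines untreated. The 3 WT lines had 388, 594 and 404 irradiated and 76.5, 32.0 and 38.7 untreated. Every irradiated array lay above every untreated one in both groups. Relb rose by 3.17 on the log2 scale in the mutant lines (95% interval 2.67 to 3.68, limma adjusted p = 2.7e-09), against 2.91 in the WT lines (2.04 to 3.78), and the difference was 0.26 (-0.74 to 1.27). Nfkb2, whose product is processed into the partner of Relb, rose by 2.48 in the mutant lines and by 2.48 in the WT lines, with a difference of 0.00 (-0.74 to 0.74). A dimmer Nfkb2 probe set gave 0.80 in the mutant lines and 1.41 in the WT lines.

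Inhibitor and feedback genes followed. Nfkbie, the inhibitor IκBε, rose by 1.77 in the mutant lines, against 2.32 in the WT lines, a difference of -0.55 (-1.18 to 0.09) that was -0.18 without WT line 3 and -0.86 without WT line 4. Nfkbia, the inhibitor IκBα, rose by 0.77 in the mutant lines (0.65 to 0.89, limma adjusted p = 1.7e-09), against 0.92 in the WT lines (0.71 to 1.12). Bcl3, an atypical nuclear inhibitor family member, rose by 2.32 in the mutant lines and by 1.90 in the WT lines. Birc3, an inhibitor of apoptosis, rose by 1.07 in the mutant lines and 1.19 in the WT lines, whereas a dimmer probe set gave 1.02 in the mutant lines and 0.09 in the WT lines. Icam1, an adhesion molecule, rose by 1.44 in the mutant lines and 1.56 in the WT lines. For each of these 5 genes the interval of the difference included 0.

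The promoters of 3 of these genes are shown as examples that hold the motif searched. The windows of Bcl3, Birc3 and Icam1, which also rose in both groups, held no match. The motif searched, a plain form of the kB site, was GGG, then any 3 bases, then TTCC, on both strands. The windows of 300 bases run from 250 before to 50 after the start of a RefSeq transcript on GRCm38.p6, and capitals mark each match in either orientation.
Nfkb2, chr19:46304487-46304786, plus strand: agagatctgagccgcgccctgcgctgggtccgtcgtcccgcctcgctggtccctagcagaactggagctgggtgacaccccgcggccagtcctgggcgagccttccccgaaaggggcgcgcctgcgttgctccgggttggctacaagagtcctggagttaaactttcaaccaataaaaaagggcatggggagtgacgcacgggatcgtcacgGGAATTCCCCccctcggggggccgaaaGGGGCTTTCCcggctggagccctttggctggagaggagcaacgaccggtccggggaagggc
Nfkbie, chr17:45555450-45555749, plus strand: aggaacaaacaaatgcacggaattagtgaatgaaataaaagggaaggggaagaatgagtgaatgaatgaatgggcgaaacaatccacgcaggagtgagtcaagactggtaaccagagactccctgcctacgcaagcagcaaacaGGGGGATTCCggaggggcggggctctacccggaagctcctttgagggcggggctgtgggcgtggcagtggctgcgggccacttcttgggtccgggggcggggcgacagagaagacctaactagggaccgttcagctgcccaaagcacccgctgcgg
Nfkbia, chr12:55492598-55492897, minus strand: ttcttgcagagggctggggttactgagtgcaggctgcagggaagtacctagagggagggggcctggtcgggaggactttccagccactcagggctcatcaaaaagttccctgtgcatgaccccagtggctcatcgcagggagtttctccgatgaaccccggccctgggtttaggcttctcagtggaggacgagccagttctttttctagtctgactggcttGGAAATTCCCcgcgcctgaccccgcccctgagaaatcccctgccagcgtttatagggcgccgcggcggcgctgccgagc
The Nfkb2 window shown, 1 of several for that gene, holds 2 matches and the other windows shown 1 each. Of the 33 NF-kB targets 27 had a window, and 10 of them (37%) held the motif, as did 8 of the 18 (44.4%) that rose in the mutant lines. Among all 32851 windows 1825 (5.56%) held it, and among the tested genes with a window 708 of 9991 (7.09%). A match is a run of letters and not a site of binding.

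Cd40, on chromosome 2, encodes the receptor through which T cells help B cells. The 9 irradiated mutant lines had Cd40 signals of 105, 300.5 and 622 (lowest, median, highest), and 32.4, 41.0 and 69.3 untreated. The WT lines had 756, 812 and 405 irradiated, and 38.0, 66.9 and 43.3 untreated. Untreated levels overlapped, and the irradiated levels of 53bp1-/- lines (105, 241 and 152) lay below all 3 WT lines, while those of Mdc1-/- lines (614, 529 and 622) lay among them. The mean change was 1.78 ± 0.58 in 53bp1-/-, 2.27 ± 0.37 in H2ax-/-, 3.23 ± 0.11 in Mdc1-/- and 3.33 ± 0.50 in WT lines (SD, n = 3 each). The pooled difference was -0.90 (-1.85 to 0.05, limma adjusted p = 0.92), and the 53bp1-/- change minus the WT change was -1.55 (limma adjusted p = 0.94). A pair of dimmer Cd40 probe sets gave pooled differences of -1.19 and -0.96. Traf1, a signal adaptor, had the 1 difference of the list with an unadjusted p under 0.05 (-0.99, limma adjusted p = 0.92). Its changes of -0.05 in the mutant lines and 0.94 in the WT lines did not pass. The mean Traf1 signal of 35.0 lay below the median signal of any array.

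Line by line, the median change of the NF-kB list was 0.38, 0.50 and 0.59 in the 53bp1-/- lines, 0.76, 0.54 and 0.78 in the H2ax-/- lines, 0.80, 0.81 and 0.73 in the Mdc1-/- lines, and 0.80, 0.95 and 0.88 in the WT lines. Of the 9 mutant lines 8 lay below every WT line, and the lowest was a 53bp1-/- line. No test of the list's medians was made.

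**Figure D2:**
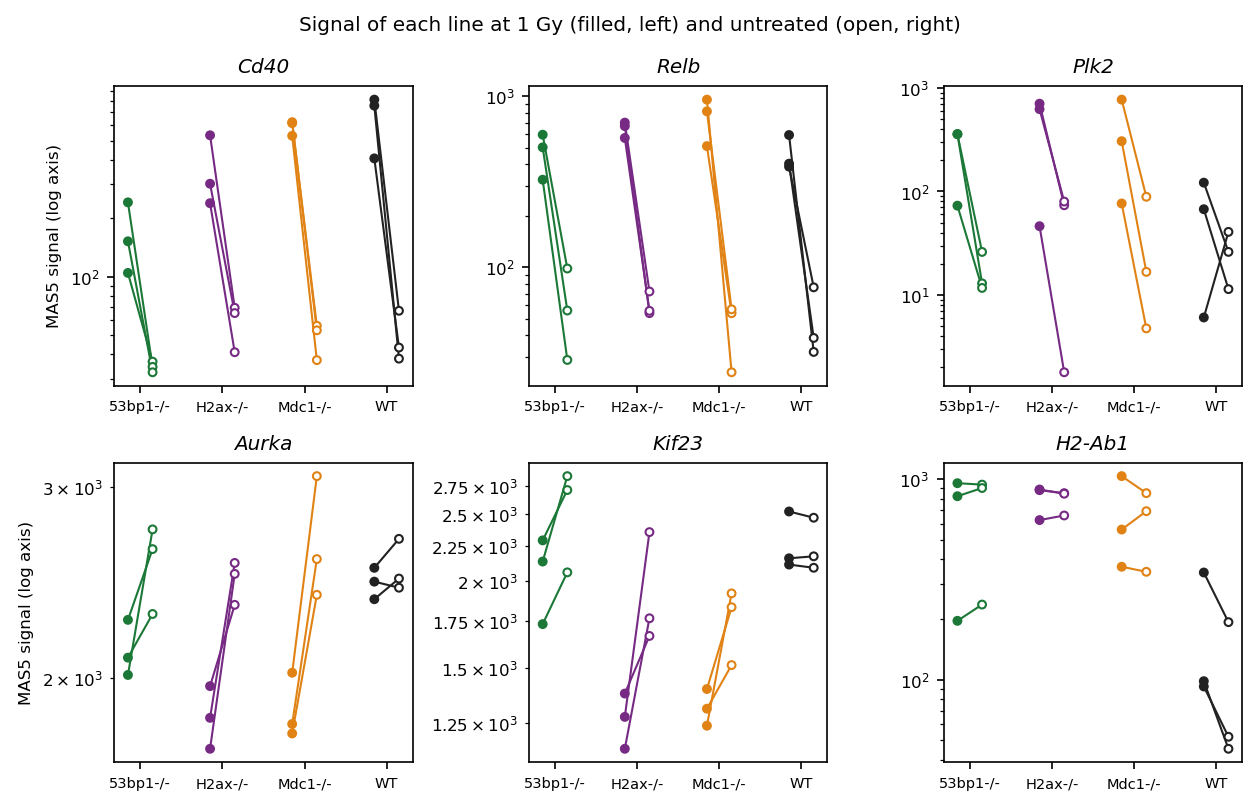
MAS5 signal on a log axis of Cd40, Relb, Plk2, Aurka, Kif23 and H2-Ab1, with 1 line per cell line joining its irradiated array (filled, left) to its untreated array (open, right), by genotype. Cd40 and Relb are higher at 1 Gy in all 12 lines, Kif23 is lower at 1 Gy in the 9 mutant lines and level in the 3 WT lines, and H2-Ab1 is level in the mutant lines and higher at 1 Gy in the WT lines, whose untreated signals are lower.

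The p53 targets also rose together. p53 is the transcription factor that Atm and its partner kinases stabilise after damage, and its targets halt the cell cycle, start apoptosis or feed back on p53. Of 33 listed targets 25 rose and 0 fell in the mutant lines, against 21 risen and 0 fallen in the WT lines, and 21 rose in both, beside 4.97% of all genes risen in the pooled response and 2% in the WT response. The median change was 0.97 in the mutant lines and 0.91 in the WT lines. None of the 33 differences passed, and 4 had an unadjusted p under 0.05, with 3 higher and 1 lower in the mutant lines. The median difference of the list was 0.20, and its sign and size rested on single WT lines: it was -0.05 without WT line 4 and 0.38 without WT line 1.

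Cdkn1a, the cyclin-dependent kinase inhibitor p21, had signals of 460, 9697 and 12558 (lowest, median, highest) in the irradiated mutant lines and of 216, 1786 and 2586 in the untreated ones. The WT lines had 6176, 9231 and 10526 irradiated, and 1321, 2631 and 4331 untreated. The lowest mutant values were both of H2ax-/- line 2. Cdkn1a rose by 2.20 in the mutant lines (1.99 to 2.42, limma adjusted p = 1.2e-12), against 1.76 in the WT lines (1.39 to 2.14), and the difference was 0.44 (0.01 to 0.87, limma adjusted p = 0.92). Without WT line 4 the Cdkn1a difference was 0.19, and without WT line 1 it was 0.66. A dimmer Cdkn1a probe set gave a difference of 0.83.

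Fas, a death receptor, rose by 2.32 in the mutant lines, against 1.54 in the WT lines, a difference of 0.78 (-0.16 to 1.71) that was 0.43 without WT line 4 and 1.22 without WT line 3. Bbc3, which encodes the BH3 protein Puma, rose by 1.69 in the mutant lines and 1.43 in the WT lines. Pidd1, a p53-induced death domain protein, rose by 1.15 in the mutant lines and 1.33 in the WT lines. Of the feedback genes, Mdm2, the ubiquitin ligase that destroys p53, rose by 1.18 in the mutant lines and by 1.16 in the WT lines, a difference of 0.02 (-0.44 to 0.49). Sesn2, a regulator of growth signalling, rose by 1.91 in the mutant lines and 1.58 in the WT lines. A second Sesn2 probe set, with a mean signal of 452, gave 1.61 in the mutant lines and 1.82 in the WT lines. Phlda3, a repressor of Akt, rose by 1.88 in the mutant lines and 1.57 in the WT lines, and Slc19a2, a thiamine transporter, by 1.98 in the mutant lines and 1.82 in the WT lines.

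Plk2, a polo-like kinase gene on chromosome 13, had the highest difference of all 12363 genes. Its signals were 46.2, 358 and 772 (lowest, median, highest) in the irradiated mutant lines and 1.8, 16.7 and 88.8 in the untreated ones. WT line 1 had 6.1 irradiated and 40.7 untreated, WT line 3 had 67.4 and 11.4, and WT line 4 had 122 and 26.1. All 9 mutant lines went up, and of the WT lines 2 went up and 1 went down. Plk2 rose by 2.72 in the mutant lines (1.97 to 3.47), whereas the WT change of 0.65 did not pass (-0.64 to 1.95). The difference of 2.07 (0.57 to 3.56) had a limma adjusted p of 0.91, and it was 1.06 without WT line 1. Tigar, a regulator of glycolysis, ran the other way, with changes of -0.07 in the mutant lines and 0.46 in the WT lines, and neither change nor their difference of -0.53 passed.

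One mutant line stood apart in this list. The median change of p53 targets was 0.12 in H2ax-/- line 2 and between 0.95 and 1.37 in the other 8 mutant lines, and it was 1.27, 0.96 and 0.42 in the WT lines. In H2ax-/- line 2 Mdm2 had 1221 irradiated and 1084 untreated, Bbc3 had 260.0 irradiated and 204.8 untreated, and Sesn2 had 329 irradiated and 279 untreated. The same line's NF-kB targets had a median change of 0.54, and its Relb signals were 702 irradiated and 72.3 untreated. Without that line 11 p53 targets instead of 4 had an unadjusted p under 0.05 in the difference, beside 656 of all 12363 genes. Still 0 genes passed over all genes. The line left out was the lowest of the mutant lines in this list, so its removal by itself moves the list's difference upward. Under the alternatives that refit the changes, the count of p53 targets ran from 2 to 12.

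**Figure D3:**
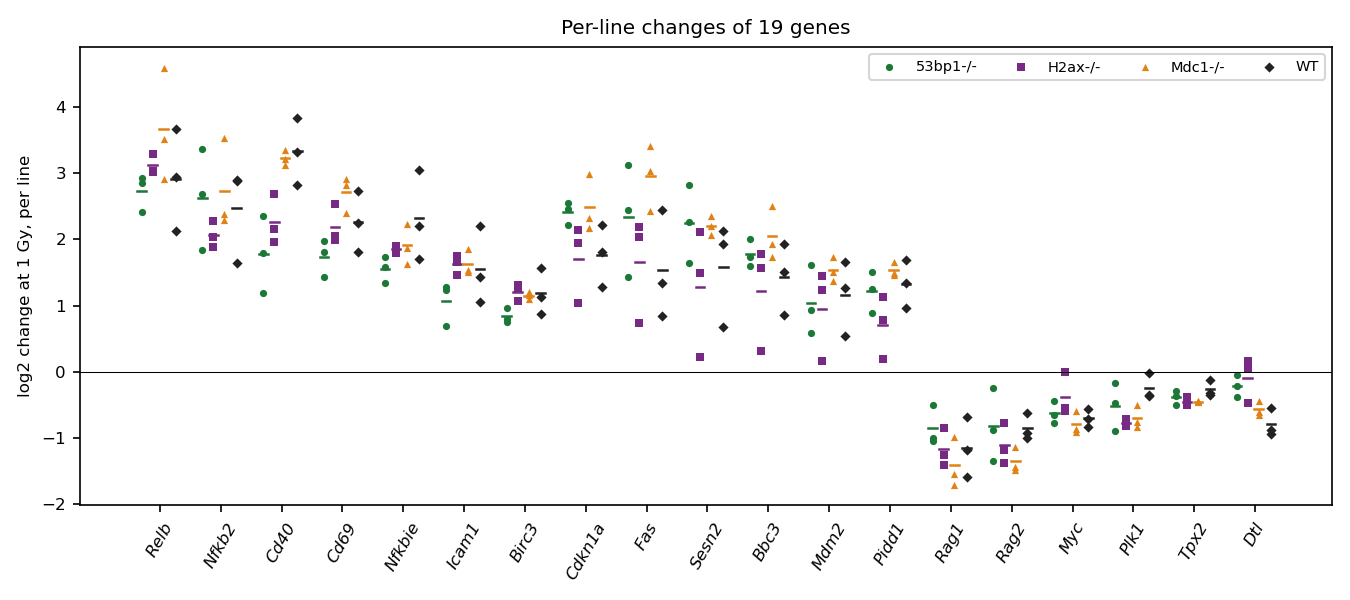
Log2 change at 1 Gy of 19 genes in each line, with 3 points per genotype and a bar at the genotype's mean, for 53bp1-/-, H2ax-/-, Mdc1-/- and WT lines. Mutant and WT lines overlap for all 19 genes, the lowest mutant points of Cdkn1a, Fas, Sesn2, Bbc3, Mdm2 and Pidd1 all belong to H2ax-/- line 2, and Rag1 and Rag2 lie below 0 in all 12 lines.

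Genes of G2 and mitosis fell in the mutant lines, and this group gave the most differences with a small unadjusted p. These genes drive entry into mitosis, spindle assembly and division, and their transcripts peak late in the cell cycle. Of 33 listed genes 24 fell and 2 rose in the mutant lines, against 7 fallen and 2 risen in the WT lines, beside 4.97% of all genes risen and 5.45% fallen in the pooled response and 2% and 1.8% in the WT response. The 2 that rose in both groups were Ccnf (cyclin F; 0.61 in mutant lines, 0.60 in WT lines) and Gtse1, a p53-binding protein of G2 (1.02 and 1.03). The median change of the list was -0.26 in the mutant lines and -0.10 in the WT lines. A fall that passes in 9 lines and misses in 3 is no difference by itself, and none of the 33 differences passed.

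The differences of this list leaned one way. For 27 of the 33 genes the difference was below 0, beside 6441 of all 12363 genes (52.1%). For 10 of them the unadjusted p was under 0.05, each with a lower change in the mutant lines, beside 5.29% of all genes. That count was 6 to 14 under other processing or with lines left out. The 33 genes were read in the same lines and are not independent, so these counts are descriptions with no test. The list was chosen with earlier results of these data known. The median change was -0.15, -0.11 and -0.32 in the 53bp1-/- lines, -0.20, -0.22 and -0.30 in the H2ax-/- lines, -0.31, -0.38 and -0.39 in the Mdc1-/- lines, and -0.03, -0.06 and -0.17 in the WT lines. WT line 4 lay among the mutant lines and the other WT lines above all 9. The median level of the list on the log2 scale was 11.33 in irradiated mutant lines and 11.49 in untreated ones, against 11.32 irradiated and 11.45 untreated in WT lines, so the levels of both groups overlapped at both doses. All 33 intervals of the difference lay within 1 log2 unit of 0, a bound wider than the list's median change in either group.

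Aurka, the kinase Aurora A of the spindle poles, had signals of 1723, 1967 and 2263 (lowest, median, highest) in the irradiated mutant lines and 2291, 2552 and 3067 in the untreated ones. The WT lines had 2453, 2364 and 2526 irradiated, and 2422, 2470 and 2686 untreated. All irradiated mutant arrays lay below all WT arrays, and untreated levels overlapped. Aurka fell by 0.39 in the mutant lines (limma adjusted p = 2.1e-07), whereas the WT change was -0.04 (-0.19 to 0.10). The difference was -0.35 (-0.52 to -0.18), with an unadjusted p of 0.00028 and a limma adjusted p of 0.70. A second Aurka probe set with a mean signal of 61.2 gave a difference of -0.05.

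Kif23, a motor protein of the cleavage furrow, had signals of 1146, 1377 and 2292 (lowest, median, highest) in the irradiated mutant lines and 1514, 1921 and 2838 in the untreated ones. The WT lines had 2159, 2523 and 2114 irradiated, and 2173, 2471 and 2092 untreated. Each WT line changed by at most 0.03 on the log2 scale in size, and each mutant line by -0.21 or more in the downward direction. The mean change was -0.43 ± 0.23 in the 9 mutant lines and 0.01 ± 0.02 in the 3 WT lines (SD), and the difference of -0.44 (-0.70 to -0.19) had a limma adjusted p of 0.91. Other Kif23 probe sets gave -0.31 and, at a mean signal of 89.1, 0.18. Plk1, the polo-like kinase of mitotic entry, fell by 0.66 in the mutant lines, against a WT change of -0.24 (-0.45 to -0.03) that did not pass. Its difference was -0.42 (-0.66 to -0.18, limma adjusted p = 0.91).

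For 3 of the 33 genes (Aurka, Kif23 and Cdc25b) the changes of all 9 mutant lines lay below those of all 3 WT lines, beside 78 of all genes (0.631%), and in all 152 genes (1.23%) the changes of the groups did not overlap in 1 direction or the other. Cdc25b, a phosphatase that activates mitotic cyclin-dependent kinase, changed by between -0.20 and -0.04 in the mutant lines and by 0.03, 0.05 and 0.28 in the WT lines. Cenpf and Cenpe, both of the kinetochore, fell by 0.60 and by 0.50 in the mutant lines, and their differences were -0.28 (-0.48 to -0.08) and -0.29 (-0.49 to -0.09). Tpx2, a spindle assembly factor, fell by 0.43 in the mutant lines and by 0.26 in the WT lines, and the sign of its difference was the opposite in a pair of dim probe sets.

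**Figure D4:**
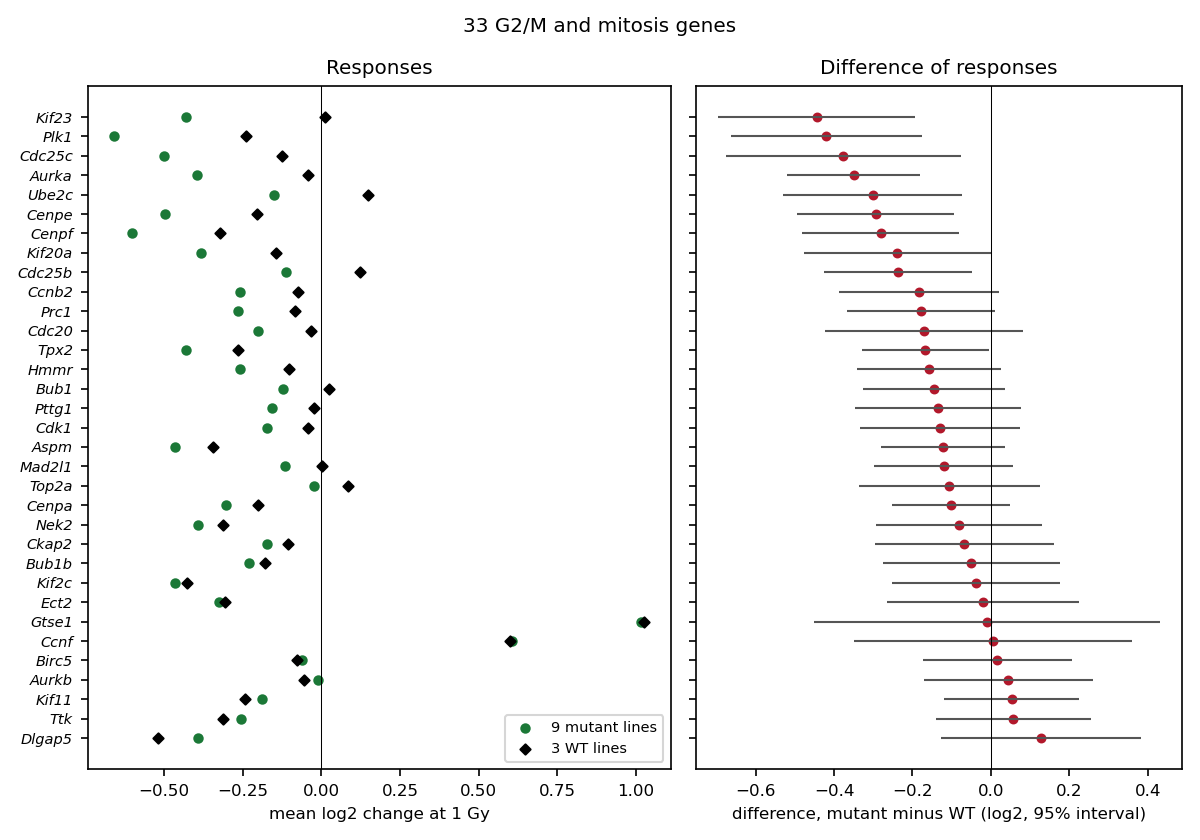
Left, mean log2 change at 1 Gy of 33 G2 and mitosis genes in the 9 mutant lines (circles) and the 3 WT lines (diamonds). Right, the difference of the responses with its 95% interval: 27 of 33 points lie below 0, from -0.44 for Kif23 to 0.13 for Dlgap5, and all intervals lie within 1 log2 unit of 0.

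Genes of G1, S phase and DNA replication fell more often than they rose in both groups. Of 34 listed genes 2 rose and 7 fell in the mutant lines, against 1 risen and 6 fallen in the WT lines, beside 4.97% of all genes risen and 5.45% fallen in the pooled response and 2% and 1.8% in the WT response. The median change was -0.04 in the mutant lines and -0.08 in the WT lines. Those that rose in the mutant lines were Ccnd2 (cyclin D2; 0.24, against 0.43 in the WT lines) and Rrm2, a ribonucleotide reductase subunit (0.15). Cdc6, which loads the replicative helicase, fell by 0.36 in the mutant lines and by 0.51 in the WT lines, and Dbf4, which activates the kinase that fires origins, fell by 0.30 in the mutant lines and by 0.29 in the WT lines. Dtl, the substrate receptor of a ubiquitin ligase that destroys the licensing factor Cdt1, had the second-smallest unadjusted p among the differences with a higher change in the mutant lines.

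Dtl had signals of 1337, 1446 and 2145 (lowest, median, highest) in the irradiated mutant lines and 1618, 1875 and 2286 in the untreated ones, against 1525, 978 and 967 irradiated and 2239, 1884 and 1784 untreated in the WT lines. It fell by 0.29 in the mutant lines and by 0.79 in the WT lines, and the difference was 0.50 (0.25 to 0.74, limma adjusted p = 0.70). The changes of the groups overlapped. A further 5 Dtl probe sets gave differences between -0.08 and 0.17. Ccne2 (cyclin E2) changed by -0.02 in the mutant lines and fell by 0.33 in the WT lines, with a difference of 0.31 (0.12 to 0.51, limma adjusted p = 0.91), and the changes of all 9 mutant lines lay above those of all 3 WT lines, beside 74 of all genes (0.599%).

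Few genes of break signalling and repair, the group to which the disrupted genes belong, passed the test. Of 27 listed genes 1 rose and 2 fell in the mutant lines, against 0 risen and 1 fallen in the WT lines, shares near those of all genes (4.97% risen and 5.45% fallen in the pooled response, 2% and 1.8% in the WT response). Chek2, a checkpoint kinase, rose by 0.22 in the mutant lines, against a WT change of 0.30 that did not pass. Chek1, the checkpoint kinase of replication stress, fell by 0.20 in the mutant lines, against a WT change of -0.27 that did not pass. Lig4, the ligase of end joining, fell by 0.48 in the mutant lines and by 0.66 in the WT lines. Nbn, the subunit that ties the Mre11 complex to Atm, changed by between -0.27 and -0.03 in the 9 mutant lines and by 0.07, 0.01 and 0.29 in the WT lines. The Nbn difference of -0.25 (-0.48 to -0.01) had a limma adjusted p of 0.92 and was -0.16 without WT line 4, and 8 genes of all tested (0.0647%) had all 9 mutant lines on one side of 0 and all 3 WT lines on the other.

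Among genes that fell in all 9 mutant lines the recombinase genes fell most. Rag1, on chromosome 2, had signals of 80.8, 462 and 1080 (lowest, median, highest) in the irradiated mutant lines and 299, 972 and 1541 in the untreated ones. The WT lines had 688, 385 and 181 irradiated, and 1579, 1190 and 299 untreated. Every line of both groups had less Rag1 irradiated than untreated. Rag1 fell by 1.14 in the mutant lines (limma adjusted p = 3.2e-08) and by 1.15 in the WT lines, a difference of 0.01 (-0.42 to 0.44). Its neighbour Rag2 fell by 1.09 in the mutant lines and by 0.85 in the WT lines, a difference of -0.24 (-0.79 to 0.31).

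Other genes of the B lineage moved in both directions. Of 27 listed genes, Rag1 and Rag2 included, 3 rose and 8 fell in the mutant lines, against 3 risen and 5 fallen in the WT lines, beside 4.97% of all genes risen and 5.45% fallen in the pooled response and 2% and 1.8% in the WT response. Spib, an Ets-family transcription factor, rose by 1.05 in the mutant lines and by 1.52 in the WT lines, a difference of -0.47 (-0.93 to -0.01, limma adjusted p = 0.92). The Spib difference was -0.29 without WT line 1, -0.15 without WT line 3 and -0.97 without WT line 4, where its limma adjusted p was 0.16. Irf4, a factor that restrains the pre-B cell cycle, rose by 0.64 in the mutant lines and by 0.70 in the WT lines. Cd72, a coreceptor of B cells, changed by 0.15 in the mutant lines, which did not pass, and rose by 0.44 in the WT lines.

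Of 15 genes of activation and homing 4 rose and 2 fell in the mutant lines, against 2 risen and 0 fallen in the WT lines, beside 4.97% of all genes risen and 5.45% fallen in the pooled response and 2% and 1.8% in the WT response. Cd69, a surface receptor of early activation, rose by 2.21 in the mutant lines and by 2.26 in the WT lines, a difference of -0.05 (-0.70 to 0.60). Swap70, a guanine nucleotide exchange factor of B cells, rose by 1.13 in the mutant lines and by 1.33 in the WT lines. Klf2, a transcription factor of lymphocyte homing, had signals of 98.0, 191 and 353 (lowest, median, highest) in the irradiated mutant lines and 140, 244 and 428 in the untreated ones, against 148, 194 and 332 irradiated and 139, 72.5 and 308 untreated in the WT lines. Klf2 fell by 0.43 in the mutant lines, while the WT change of 0.48 did not pass, and the difference was -0.90 (-1.43 to -0.38, limma adjusted p = 0.91). WT line 3 changed by 1.24 and the other WT lines by 0.08 and 0.10, and without WT line 3 the difference was -0.52. The chemokine receptor gene Cxcr5 changed by -0.04 in the mutant lines and 0.88 in the WT lines, and neither passed.

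Among 20 immediate-early genes 6 rose and 1 fell in the mutant lines, against 5 risen and 1 fallen in the WT lines, beside 4.97% of all genes risen and 5.45% fallen in the pooled response and 2% and 1.8% in the WT response. Myc fell by 0.59 in the mutant lines and by 0.70 in the WT lines, and it stood at 7670 irradiated and 7655 untreated in H2ax-/- line 2, the only one of the 12 lines without a lower irradiated signal. Ier3 and Ier5 rose by 1.94 and by 1.01 in the mutant lines, against 1.76 and 0.87 in the WT lines. Of 19 genes of the apoptosis machinery, Bcl2l11, which encodes the BH3 protein Bim, was the 1 that rose (0.79 in the mutant lines, 0.61 in the WT lines), and Casp8, an initiator caspase, was the 1 that fell in the mutant lines, by 0.19, counts near the shares of all genes. In the WT lines Bcl2l11 rose and Casp9 fell, by 0.81, whereas a dimmer Casp9 probe set gave a WT change of 1.06. Maff, a small basic leucine zipper factor of the immediate-early list, rose in the WT lines by 1.91, against a mutant change of 0.49 that did not pass. Its difference was -1.42 (limma adjusted p = 0.91), at a mean signal of 58.1, below the median signal of any array. Of 15 interferon-response genes Gbp2 and Gbp3, guanylate-binding proteins, rose in the mutant lines by 0.35 and 0.26. Their WT changes of 0.35 and 0.03 did not pass, and 0 of the 15 were called in the WT lines. Over all genes 4.97% rose in the pooled response and 2% in the WT response.

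**Figure D5:**
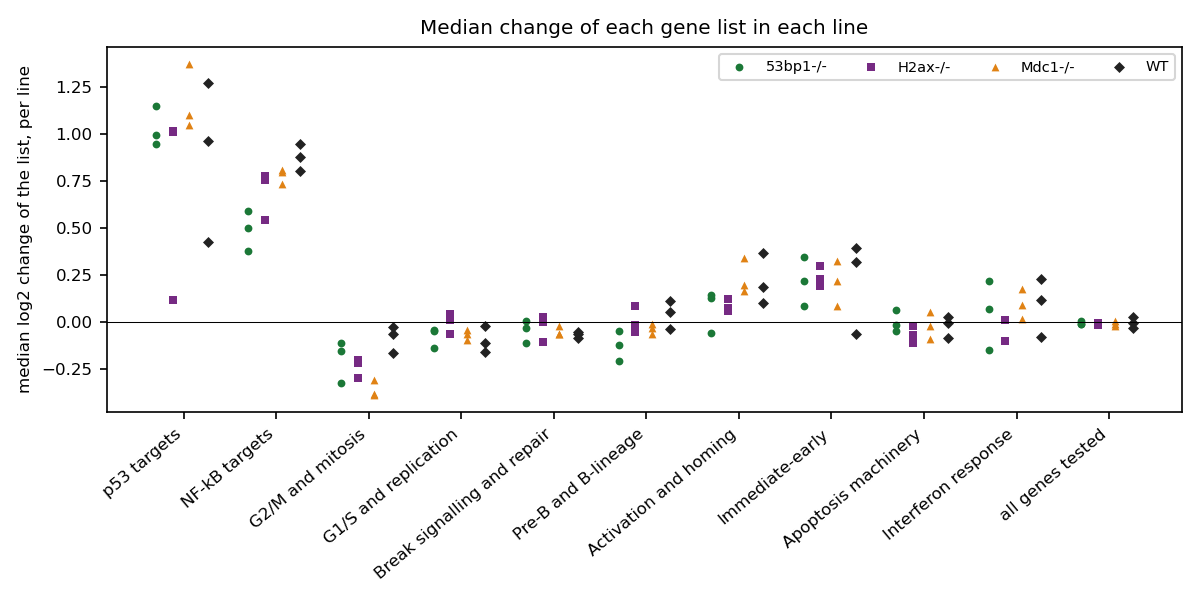
Median log2 change at 1 Gy of 10 gene lists and of all genes tested, 1 point per line, for 53bp1-/-, H2ax-/-, Mdc1-/- and WT lines. The p53 and NF-kB lists lie above 0 in all 12 lines, with H2ax-/- line 2 at 0.12 for p53 targets, the G2 and mitosis list lies below 0 in all 12 lines, and the medians of all genes lie within 0.03 of 0.

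Outside the lists, the largest pooled rises among genes higher in all 9 mutant lines included 9230114K14Rik (2.47 in the mutant lines, 2.34 in the WT lines) and Inka2, an inhibitor of the kinase Pak4 (2.26 and 2.05). Among genes lower in all 9 mutant lines, the largest pooled falls after Rag1 and Rag2 were in Sh2d5, an adaptor with an SH2 domain, and Tifa, an adaptor of NF-kB signalling. Sh2d5 fell by 0.84 in the mutant lines, against a WT change of -0.17 that did not pass, and its difference was -0.67 (-1.14 to -0.20, limma adjusted p = 0.91). Tifa fell by 0.70 in the mutant lines, against a WT change of -0.54 that just missed (limma adjusted p = 0.052). Sla, an adaptor that dampens antigen receptor signalling, fell by 0.67 in the mutant lines and by 0.66 in the WT lines. The others of the 8 largest such falls were Megf10, Ifit1bl1 and Alox5, at -0.68, -0.68 and -0.66 in the mutant lines, against -0.34, -0.60 and -0.61 in the WT lines, none of which passed in WT.

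The genes with the smallest p of the difference are described by their levels, since none passed. Dnajc2, a chaperone of the ribosome on chromosome 5, had signals of 4727, 5235 and 5583 (lowest, median, highest) in the irradiated mutant lines and 4581, 5129 and 5756 in the untreated ones, against 3388, 2973 and 2955 irradiated and 4031, 3701 and 3892 untreated in the WT lines. The mutant lines were level and above the WT lines at both doses. The change was 0.03 in the mutant lines, against a fall by 0.32 in the WT lines, and the difference was 0.35 (0.20 to 0.50, unadjusted p = 7.3e-05, limma adjusted p = 0.70). A pair of other Dnajc2 probe sets gave -0.06 and -0.08, so 1 of 3 probe sets gave the difference.

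H2-Ab1, the β chain of a class II antigen-presenting molecule on chromosome 17, had signals of 197, 822 and 1034 (lowest, median, highest) in the irradiated mutant lines and 237, 846 and 938 in the untreated ones. The WT lines had 92.8, 343 and 98.6 irradiated and 52.1, 194 and 45.4 untreated. The untreated groups did not overlap, so the WT lines changed from a lower level. H2-Ab1 changed by -0.03 in the mutant lines and rose by 0.78 in the WT lines, and the difference was -0.81 (-1.18 to -0.44, limma adjusted p = 0.70). Of its other probe sets 1 gave -0.87 and 1 gave 0.03.

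Of the other genes with a higher change in the mutant lines, Hhex, a homeobox factor of early blood cells, changed by -0.05, against a fall by 0.49 in the WT lines. Riok2, a kinase of ribosome maturation, changed by 0.22 in the mutant lines and -0.34 in the WT lines, neither of which passed. Its untreated signals were 509 to 943 in the mutant lines and 1548 to 1891 in the WT lines. The Riok2 difference was 0.56, and dimmer Riok2 probe sets gave 0.17 and 0.03. Dctn6, a dynactin subunit, changed by 0.01 in the mutant lines and fell by 0.39 in the WT lines. The Dctn6 difference was 0.40, and a dimmer probe set gave 0.12. With a lower change in the mutant lines, Slc45a2, a transporter of pigment cells, and the genes Asb18 and Cby3 had differences of -1.67, -1.46 and -1.73 at low signals. Their untreated means in the WT lines were 29.1, 17.3 and 11.7, all below the median signal of any array, and a second Slc45a2 probe set gave 0.01.

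The 3 mutant genotypes were also compared one by one. The 53bp1-/-, H2ax-/- and Mdc1-/- responses each differed from WT in 0 genes (0%), with 651 (5.27%), 567 (4.59%) and 641 (5.18%) genes at an unadjusted p under 0.05. The moderated F test of differences among the 3 mutants also called 0 genes, with 587 (4.75%) at an unadjusted p under 0.05. The smallest adjusted p of the F test was 0.228, for Slc1a5, a glutamine transporter, which changed by -0.16 ± 0.03 in 53bp1-/-, -0.08 ± 0.20 in H2ax-/- and 0.40 ± 0.06 in Mdc1-/- lines, against -0.06 ± 0.07 in WT lines (SD, n = 3 each). A dimmer Slc1a5 probe set, with a mean signal of 606, gave a pooled change of -0.17 and a WT change of -0.48. The probe set used gave 0.05 and -0.06. Slc1a5 was named after its values were seen. Cenpe fell most in Mdc1-/- lines, at -0.74 ± 0.08, against -0.33 ± 0.10 in 53bp1-/- and -0.43 ± 0.11 in H2ax-/- lines, with an unadjusted p of the F test of 0.005. These comparisons with WT share the WT arrays, so their values are not independent of each other.

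The 95% interval of the difference reached a median of 0.34 log2 units to either side over all genes, 0.20 in the 4121 brightest genes, 0.33 in the 4121 of middling signal and 0.96 in the 4121 dimmest. A gene that misses the threshold is not shown to respond alike in both groups.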

How the data were processed

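Affymetrix intensities were deposited by the authors as MAS5 signals, per the submitters' processing notes, with each array at a trimmed mean of 500; the MAS5 version is not given in the sources used here. Of 45101 probe sets, 64 controls were removed, and 28260 that lay above their array's median on at least 3 of 42 arrays were kept. The platform annotation gave 23245 of them 1 gene symbol, and the brightest probe set stood for each of 12363 genes. The change per line was log2(signal + 16) at 1 Gy minus untreated, paired by genotype and replicate number, so the line is the block. Same-numbered arrays deviated together from their group means in all 12 pairs (r from 0.36 to 0.65), while the 24 pairs of different number had r from -0.45 to -0.05. Deviations from a mean of 3 arrays sum to 0, so high same-number values force low ones elsewhere, and the negative values add no support. Linear models were fitted in limma 3.58.1 (R 4.3.3) with a trend in the variance, over 21 lines with 14 residual degrees of freedom, and were tested on simulated data. Genes named are those with the smallest p of the difference, the largest pooled changes seen in all 9 lines, the smallest p within each list, and a panel of well-known members; Cdc25b, Cenpe, Ccnf, Gtse1, Dlgap5, Ccnd2, Rrm2 and Slc1a5 were added after their values were seen. The members and lists were chosen with earlier results of these data known. Alternatives changed the pairing, offset, scaling, filter, probe set rule, variance model and lines. Scanner files were not used here, and the number of arrays limits the precision.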

Additional observations from a re-analysis of the deposited data

Results flagged for a closer look

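In 11 of the 87 genes and lists checked, 1 of the 9 mutant lines lay far from the other 8 by Dixon's test, which chance does in about 1 in 20 groups. H2ax-/- line 2 was the low line for the p53 target median (0.12) and for the changes of 9230114K14Rik (0.33), Slc19a2 (0.25), Phlda3 (0.55), Ier5 (0.26) and Bbc3 (0.32). The same line was the high one for H2ax itself, at 1.37, a change between low signals of a disrupted gene. Mdc1-/- line 2 was the high line for Relb (4.59) and Cd74 (1.75), and 53bp1-/- line 1 was nearest to 0 for Cenpf (-0.25) and lowest for Swap70 (0.35).

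Nbn changed downward in all 9 mutant lines and upward in all 3 WT lines. The test of the difference gave -0.25 (unadjusted p = 0.043, limma adjusted p = 0.92), which did not pass.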

How the results depend on the processing

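The difference called 0 genes under all 27 alternatives, with 200 to 973 genes at an unadjusted p under 0.05 and a smallest limma adjusted p between 0.12 and 1. Without the replicate block the pooled response had 226 genes and the WT response 12. Without the Mdc1-/- lines the pooled response had 559 genes, and with no trend in the variance the WT response had 265 and the 53bp1-/- minus WT comparison 1 (Fcna). Leaving out each line in turn gave 946 to 1343 pooled genes and 115 to 461 WT genes (115 without WT line 3, 255 without WT line 1). It gave 0 to 1 for H2ax-/- minus WT (Dtl without H2ax-/- line 1, Rnasek without line 2). Among the mutants it gave 0 to 3 (H2ax, Rprd1a and Slc1a5 without H2ax-/- line 1, Ang without Mdc1-/- line 3). H2ax is the gene disrupted in the H2ax-/- lines, with signals of 18.7 to 107 there. The cause of these shifts in counts was not tested. The correlation across all genes, 0.44, was 0.35 to 0.44 with 1 line left out, 0.32 with an offset of 1, 0.57 with 64, 0.28 with no filter, 0.74 with a stricter one, 0.40 without the H2ax-/- lines, 0.38 without the Mdc1-/- lines and 0.40 without the high-median arrays. No named pooled response that passed the test changed sign. Among the named gene differences 15, and of 10 list median differences 3, changed sign under some alternative, and none of these gene differences had passed. Alox5 kept its pooled call in 14 of 26 alternatives. Low signal limits the dimmest genes most.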
